A study of Mus musculus with 40 samples.

Results

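The kidneys of 5 male mice given 2,3,7,8-tetrachlorodibenzo-p-dioxin (TCDD) at 10 µg/kg were compared with those of 5 male mice given the sesame oil vehicle alone. These 10 libraries were chosen by the dose in their labels, out of 40 libraries from 8 groups of 5 mice. All animals were C57BL/6 mice (C57BL/6NCrl in the design text), gavaged every 4 days for 28 days from postnatal day 30, and killed on day 58. The dose was given 7 times in 0.1 mL of sesame oil, so vehicle and TCDD mice shared the oil, the handling and the age. Each library came from about 100 mg of the right kidney of 1 mouse, and gavage and collection always fell within the first 3 h of the light phase. The mice at 3 and 30 µg/kg, which had the same schedule, oil and age, were used to place the 10 µg/kg level between its neighbouring doses.

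TCDD is a long-lived dioxin that binds AhR, the aryl hydrocarbon receptor, which waits in the cytosol with chaperones. Once bound, the receptor enters the nucleus, pairs with ARNT and binds the dioxin response element, whose core is GCGTG, next to genes such as those for the CYP1 family of monooxygenases. In the kidney, AhR is present in several cell types, and the organ both clears foreign compounds through its proximal tubule and holds a standing population of macrophages and endothelial cells. Interferons, the signals of antiviral defence, act through STAT and IRF factors on the interferon-stimulated response element, whose core is a pair of GAAA blocks with 2 bases between them.

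Each library held between 15746356 and 25063646 read pairs assigned to genes (15746356 to 23738125 for vehicle, 17758574 to 25063646 for TCDD). None of 7 technical measures (read shares and depth) separated the groups, with the lowest exact two-sided permutation p being 0.214 for the unmapped share, where 0.00794 is the smallest that 5 against 5 can give. The mitochondrial share of counts was 8.77 ± 0.823% in vehicle and 8.77 ± 0.606% at 10 µg/kg (SD, n = 5 each). Nephron transcripts marked the tissue as kidney, such as Umod of the thick ascending limb at 963 CPM in vehicle, while lists of neighbouring tissues were not all low: over these 10 libraries the skeletal muscle list summed to at most 1.77 CPM, adrenal cortex to 6.08, pancreas to 133, liver to 277 and adipocytes to 466 CPM. On the first principal component, which held 23.8% of the variance, the vehicle libraries lay between -37 and -11.9 and the TCDD libraries between 22.2 and 35.7.

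Vehicle replicates 1 and 2 stood apart from the other 3 vehicle libraries in the levels of nephron segment markers. Whether the cell makeup of these 2 libraries differed was not tested. Their summed S1-S2 proximal tubule markers were 20700 and 21100 CPM against 16000 to 16500 in the other vehicle libraries, and their S3 markers 6080 and 6730 against 10200 to 11100. The TCDD libraries lay at 15400 to 16900 for S1-S2 and 8620 to 10300 for S3, that is, with the other 3 vehicle libraries in S1-S2 and below them or at their lower edge in S3. The main counts are therefore also given without these 2 libraries, an alternative chosen after seeing the data.

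Of 17345 genes tested, 836 (4.82%) differed between 10 µg/kg and vehicle at a Benjamini-Hochberg adjusted p under 0.05 by edgeR's quasi-likelihood test. Of these, 663 (3.82%) were higher and 173 (0.997%) lower in the TCDD kidneys, and the median log2 fold change of all genes tested was -0.01. The rises were the larger changes: 283 of the 663 were at least 2-fold and 71 at least 4-fold, with a median log2 fold change of 0.87. Among the 173 falls, 14 were at least 2-fold and 2 at least 4-fold, with a median of -0.33. For 515 of the higher genes all 5 TCDD libraries lay above all 5 vehicle libraries, and for 111 of the lower genes all 5 lay below, while over all genes tested such separation was seen upward in 4.32% and downward in 1.82%. Without vehicle replicates 1 and 2 the counts were 422 higher and 93 lower, and leaving out 1 library at a time gave 498 to 692 higher and 80 to 201 lower. The lower count fell by over 1.5 times when vehicle replicate 1 or 2 or TCDD replicate 2, 4 or 5 was left out (101, 103, 80, 112 and 96 genes). In all text below, "rose" and "fell" are used for genes that passed this test, and levels are CPM, the counts of a gene relative to the library's total gene counts after scaling for composition.

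**Figure D1:**
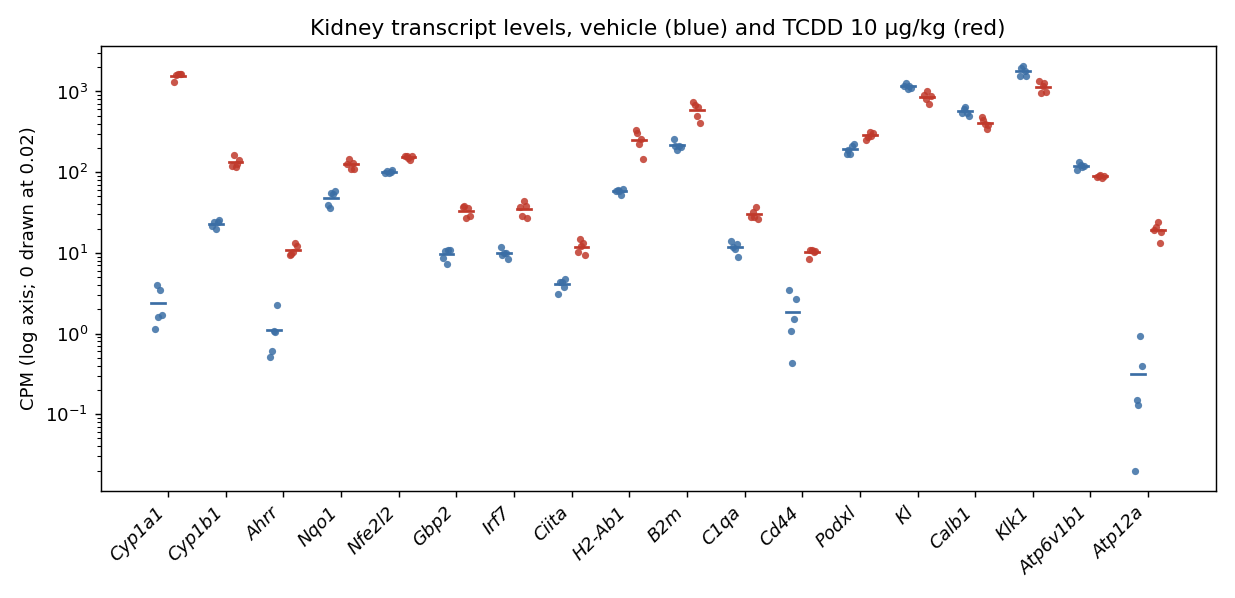
CPM of 18 genes in each of the 5 vehicle (blue) and 5 TCDD 10 µg/kg (red) kidneys, on a log axis with lines at the group means and a level of 0 drawn at 0.02. The groups do not overlap for any gene shown, but the genes were picked for display and do not stand for all genes. The widest gap is that of Cyp1a1, at 1.15 to 4 CPM in vehicle and 1310 to 1650 CPM at 10 µg/kg.

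The AhR gene battery responded in all 5 animals. Of 16 tested genes of a list of classical AhR targets, 9 rose and none fell, with a median log2 fold change of 0.66 against -0.01 for all genes, and the list summed to 1080 to 1270 CPM in vehicle and 2760 to 3220 CPM at 10 µg/kg. Most of the rise in that sum was Cyp1a1 alone. Cyp1a1, which hydroxylates polycyclic aromatic compounds, stood at 1.15, 4, 1.6, 3.42 and 1.7 CPM in the 5 vehicle libraries and at 1310, 1590, 1640, 1640 and 1650 CPM in the 5 TCDD libraries. Every TCDD kidney was far above every vehicle kidney, and the log2 fold change was 9.38 (SE 0.3, edgeR adjusted p = 1.25e-21). Cyp1b1, a related monooxygenase found mostly outside the liver, was already measurable in vehicle, at 21.4, 24, 19.9, 24.2 and 25.5 CPM, and reached 120, 162, 117, 128 and 143 CPM. The groups did not overlap, and the log2 fold change was 2.54 (SE 0.15, edgeR adjusted p = 4.4e-15).

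Ahrr, which encodes the repressor that competes with AhR for ARNT, was at 0.518, 0.607, 1.08, 1.05 and 2.26 CPM in vehicle and at 9.35, 9.79, 10.2, 13.1 and 12.3 CPM at 10 µg/kg. The lowest TCDD kidney was above the highest vehicle kidney, with a log2 fold change of 3.31 (SE 0.37, edgeR adjusted p = 5.04e-08). Nqo1, a quinone reductase shared by the AhR and NRF2 pathways, was at 38.8, 35.8, 54.7, 53.3 and 57.6 CPM in vehicle and 126, 144, 111, 131 and 111 CPM in TCDD kidneys. Its groups were separate as well, and it rose by 1.38 on the log2 scale (SE 0.16, edgeR adjusted p = 2.43e-07). Aldh3a1, an aldehyde dehydrogenase, rose from 0.566 to 1.32 CPM in vehicle to 2.26 to 4.9 CPM (log2 fold change 1.86, SE 0.34, edgeR adjusted p = 0.000171), although in counts of 1 strand only its adjusted p was 0.0994. The smaller rises were those of Xdh (xanthine dehydrogenase, 0.87), Htatip2 (0.8), the glutathione transferase Gsta3 (0.51) and Ugdh, which makes the sugar donor for glucuronidation (0.48).

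Not all of the battery moved. Tiparp, an AhR target whose product curbs the receptor, was at 34.7, 29.7, 28.6, 26.8 and 24.2 CPM in vehicle and 35.7, 39.6, 28.3, 34.8 and 34.3 CPM at 10 µg/kg. These ranges overlapped and the log2 fold change of 0.26 (SE 0.1) did not pass (edgeR adjusted p = 0.127), although it passed without vehicle replicates 1 and 2. Cyp1a2, a mainly hepatic relative of Cyp1a1, was at or under 0.394 CPM in every vehicle kidney and at 0, 0.768, 0.17, 0.47 and 6.33 CPM in TCDD kidneys. A single TCDD kidney, replicate 5, carried most of that signal, and its log2 fold change of 3.36 (SE 1.25) did not pass (edgeR adjusted p = 0.138). A further list of 14 genes held AhR, ARNT, their chaperones and coactivators, and the factors Rela, Relb and Nrip1. None of the 14 passed edgeR's test (2 at an unadjusted p under 0.05, and none by DESeq2 or limma-voom), with a median log2 fold change of 0. Ahr itself had a log2 fold change of 0.04 (SE 0.15) and Arnt of 0.09 (SE 0.09).

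The promoters of the 3 battery genes with the most complete separation hold the GCGTG core in the 250 bases before their transcription start (RefSeq sequence, build GRCm38.p6). They are shown 5′ to 3′ on the strand of the gene, with the core, or its reverse complement CACGC, in capitals: Cyp1a1 lies at chr9:57697363-57697612 (plus strand), Cyp1b1 at chr17:79715062-79715311 (minus strand) and Ahrr at chr13:74292332-74292581 (minus strand).
Cyp1a1: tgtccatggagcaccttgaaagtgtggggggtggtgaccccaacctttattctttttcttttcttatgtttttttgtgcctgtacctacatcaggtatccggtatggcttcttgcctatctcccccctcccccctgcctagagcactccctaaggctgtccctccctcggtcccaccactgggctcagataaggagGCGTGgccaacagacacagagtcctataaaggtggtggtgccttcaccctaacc
Cyp1b1: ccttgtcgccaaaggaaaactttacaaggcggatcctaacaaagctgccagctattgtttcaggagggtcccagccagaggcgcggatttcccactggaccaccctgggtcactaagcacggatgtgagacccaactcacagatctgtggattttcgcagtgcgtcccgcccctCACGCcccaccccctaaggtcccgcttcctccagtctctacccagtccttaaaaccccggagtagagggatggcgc
Ahrr: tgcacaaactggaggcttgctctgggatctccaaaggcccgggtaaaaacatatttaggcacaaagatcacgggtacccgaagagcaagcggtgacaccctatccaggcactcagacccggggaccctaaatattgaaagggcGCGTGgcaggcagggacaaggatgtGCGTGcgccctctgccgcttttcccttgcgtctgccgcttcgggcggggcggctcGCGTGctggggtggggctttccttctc
The Ahrr window holds 3 copies and the other windows 1 each. Searched on both strands over the 300 bases from 250 before to 50 after the start, GCGTG is common: 35.2% of all 27025 promoters hold it, as do 52.2% of those of tested genes, 41.4% of those of genes that rose, 39.4% of those of genes that fell and 5 of the 7 with a promoter entry among the battery genes that rose. A match is a description of the letters and not a measured binding site.

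Genes of the NRF2 (Nfe2l2) pathway, which guards against oxidants and electrophiles, moved less. Of 25 tested genes of the list, Nfe2l2 among them, 7 rose and none fell, with a median log2 fold change of 0.23. When TCDD replicate 2 was left out, 4 rose. Nfe2l2 itself, the transcription factor, was at 96.8, 103, 96.9, 101 and 107 CPM in vehicle and at 158, 159, 150, 143 and 160 CPM in TCDD kidneys. Both groups were tight and separate, and the log2 fold change was 0.61 (SE 0.07, edgeR adjusted p = 3.56e-08). Besides Nqo1, the rises were Abcc4 (an efflux pump for organic anions, 0.92), Gstm1 (0.67), Gsr (glutathione reductase, 0.47), Gstp1 (0.33) and Pgd of the pentose phosphate pathway (0.25). Without vehicle replicates 1 and 2, Gstm1, Gstp1 and Pgd did not pass. Without single libraries, Abcc4 lost its call without TCDD replicate 2 (edgeR adjusted p = 0.0536), Gstp1 without vehicle replicate 1 or TCDD replicate 1 or 2 (up to 0.0673), and Pgd in all but those without vehicle replicate 1 or TCDD replicate 5 (up to 0.163). Other widely used NRF2 targets of the list did not pass. Gclc, for glutathione synthesis, had a log2 fold change of 0.48, Hmox1 of 0.34, Srxn1 of 0.15 and Txnrd1 of 0.12.

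Among 39 tested conjugation enzymes, which attach glutathione, glucuronic acid or sulfate to foreign compounds, 4 rose and 1 fell, with a median log2 fold change of 0.01. Ugt1a10 was at 0.576, 0.86, 0.302, 0.788 and 1.25 CPM in vehicle and 2.31, 9.89, 6.17, 5.02 and 3.09 CPM in TCDD kidneys. The groups were separate, with a log2 fold change of 2.82 (SE 0.54, edgeR adjusted p = 0.000651). However, 58.1% of its exonic bases are shared with other Ugt1a genes on the same strand. Read pairs that match more than 1 gene are counted for none, so its level may leave out pairs from those bases. The member that fell was Gstt1, at -0.28 on the log2 scale, and it did not pass without vehicle replicate 1 or 2 or TCDD replicate 2 or 5 (edgeR adjusted p up to 0.0947). Of the 19 tested genes of the CYP2 and CYP3 families none passed edgeR's test (1 at an unadjusted p under 0.05, none by DESeq2 or limma-voom), and their median log2 fold change was -0.13.

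Interferon and immune genes made up 22.2% of the rises: 147 of the 663 higher genes, and none of the 173 lower genes, belonged to the immune and myeloid lists, which hold 233 (1.34%) of the genes tested. Of the 663, 202 are on any of the lists used and the others were not classed. The lists were chosen with earlier results of these data known, and these shares carry no test. Of 57 tested genes of the type I interferon response 46 rose and none fell, with a median log2 fold change of 1.04, and the list summed to 844 to 964 CPM in vehicle and 1350 to 1520 CPM at 10 µg/kg. Irf7, the factor that amplifies interferon production, was at 11.9, 9.46, 9.84, 9.92 and 8.49 CPM in vehicle and 37.3, 28.7, 43.3, 37.7 and 27 CPM in TCDD kidneys. All 5 TCDD kidneys were above the highest vehicle kidney, with a log2 fold change of 1.81 (SE 0.19, edgeR adjusted p = 6.64e-09). Ifit1, whose product binds viral RNA, was at 4.32, 3.29, 2.89, 3.02 and 3.68 CPM in vehicle and 19.9, 14.2, 11.3, 17 and 16.7 CPM at 10 µg/kg. It too was separate between groups, with a log2 fold change of 2.2 (SE 0.24, edgeR adjusted p = 1.45e-08). Isg15, a ubiquitin-like modifier, went from 2.25, 1.52, 2.07, 1.97 and 2.15 CPM to 11, 6.96, 8.15, 9.8 and 6.87 CPM (log2 fold change 2.1, SE 0.29, edgeR adjusted p = 1.07e-06), again without overlap between the groups. Oas3, which senses double-stranded RNA, had the largest log2 fold change of the list, at 2.7 (SE 0.58), from a low level of 0.341 CPM.

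The interferon-inducible GTPases, which attack the vacuoles of intracellular microbes and respond strongly to interferon gamma, rose together: 21 of 22 tested, with a median log2 fold change of 1.91, which is the same with Gbp2b at its lower bound. Gbp2 was at 8.75, 10.4, 7.21, 11 and 10.7 CPM in vehicle and 37.5, 37.8, 27.2, 35.6 and 28.6 CPM in TCDD kidneys. The lowest TCDD value was above the highest vehicle value, and the log2 fold change was 1.8 (SE 0.18, edgeR adjusted p = 4.6e-09). Gbp2b was at or below 3 counts in every vehicle library and at 3.76, 3.84, 2.15, 2.74 and 3.73 CPM in TCDD kidneys, at least 19.8-fold higher than the vehicle floor of 0.164 CPM (edgeR adjusted p = 5.68e-08). Iigp1 (log2 fold change 2.19), Igtp (2.14) and Irgm1 (1.36) of the IRG branch rose as well. Gbp11, at 2.39, was the member that did not pass. On the same strand, 46.3% of the exonic bases of Gbp10 and 29% of those of Gbp6 lie within another gene model, Gm43302. Read pairs that match both models are counted for neither, so the counts of these genes are uncertain and may be incomplete.

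Transcripts of the listed interferons themselves were at or near 0, and other members of the family were not on the list. Ifna2, Ifna4, Ifnl2 and Ifnl3 had no counts in any of the 10 libraries, and Ifng and Ifnb1 none in vehicle and at most 3 counts in any TCDD library, so none of them could be tested. Of 21 tested interferon receptors and signalling genes 6 rose and none fell. Irf1, which turns on class I and class II activators, was at 12, 10.4, 13.5, 11.4 and 13.1 CPM in vehicle and 32.2, 31.6, 27.3, 28.9 and 23.2 CPM in TCDD kidneys. There was no overlap, and the log2 fold change was 1.25 (SE 0.18, edgeR adjusted p = 3.42e-06). Stat2 rose by 0.72 (SE 0.11) on the log2 scale. The receptor chain Ifngr1 rose by 0.31 and Irf2 by 0.33, both lost without vehicle replicates 1 and 2 and in 6 of the 10 fits without 1 library, among them vehicle replicate 2 and TCDD replicates 1 and 2 (edgeR adjusted p up to 0.0977 and 0.159), and Ifnar1 (0.07), Ifngr2 (0) and Jak1 (-0.07) did not pass.

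The interferon-stimulated response element stands in the promoters of 4 of the genes described here (RefSeq, build GRCm38.p6, 250 bases before the start, gene strand, 5′ to 3′). Capitals mark GAAA, any 2 bases and GAAA, or the reverse complement TTTC, any 2 bases and TTTC, and the windows are Ifit1 at chr19:34640639-34640888 (plus), Isg15 at chr4:156200819-156201068 (minus), Gbp2 at chr3:142620413-142620662 (plus) and Cxcl10, a chemokine, at chr5:92348890-92349139 (minus).
Ifit1: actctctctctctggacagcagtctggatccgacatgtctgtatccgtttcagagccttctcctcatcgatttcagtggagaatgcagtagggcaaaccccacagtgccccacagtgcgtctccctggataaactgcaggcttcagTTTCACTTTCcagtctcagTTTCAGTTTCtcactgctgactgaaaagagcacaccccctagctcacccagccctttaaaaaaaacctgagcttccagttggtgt
Isg15: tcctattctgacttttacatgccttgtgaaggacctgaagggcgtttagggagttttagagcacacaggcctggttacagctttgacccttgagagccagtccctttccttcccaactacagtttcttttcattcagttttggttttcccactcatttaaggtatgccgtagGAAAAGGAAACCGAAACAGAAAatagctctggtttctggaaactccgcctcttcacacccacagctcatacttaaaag
Gbp2: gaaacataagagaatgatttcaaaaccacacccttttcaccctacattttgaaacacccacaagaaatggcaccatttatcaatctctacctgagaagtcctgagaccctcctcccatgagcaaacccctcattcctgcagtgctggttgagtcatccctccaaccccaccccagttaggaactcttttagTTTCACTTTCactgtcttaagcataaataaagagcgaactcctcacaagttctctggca
Cxcl10: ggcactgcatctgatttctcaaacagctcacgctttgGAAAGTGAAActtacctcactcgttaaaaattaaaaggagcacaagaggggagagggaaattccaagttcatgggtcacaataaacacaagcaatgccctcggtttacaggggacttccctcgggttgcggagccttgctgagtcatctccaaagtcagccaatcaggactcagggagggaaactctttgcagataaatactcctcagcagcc
Ifit1 holds 2 matches, Isg15 3 that overlap one another, and Gbp2 and Cxcl10 1 each. Over the same 300-base windows and both strands, 3.99% of all promoters and 3.87% of those of tested genes hold a match. The share was 13.7% (69 of 505) among genes that rose and 3.03% (4 of 132) among genes that fell. It was 91.7% (11 of 12) among the GTPases that rose and 48.5% (16 of 33) among the type I interferon genes that rose. These shares carry no test.

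Antigen presentation rose in both its arms. Of 27 tested class I genes, whose products load peptides from inside the cell, 20 rose and none fell (median log2 fold change 0.78). B2m, the shared light chain of class I molecules, was at 256, 210, 189, 209 and 207 CPM in vehicle and 733, 689, 501, 644 and 401 CPM at 10 µg/kg. Replicate 5 was the lowest of the TCDD kidneys yet stood above every vehicle kidney, and the log2 fold change was 1.47 (SE 0.18, edgeR adjusted p = 1.23e-06). The heavy chain H2-K1 rose by 1.37, the immunoproteasome subunit Psmb8 by 1.73, the class I activator Nlrc5 by 1.7 and the peptide pump Tap1 by 1.27. The general chaperones Calr, Canx and Pdia3, which serve all secreted proteins, had log2 fold changes of -0.16, -0.11 and -0.1 and did not pass.

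Of 12 tested class II genes, which present extracellular antigen to helper T cells, 9 rose and none fell (median log2 fold change 1.62). Ciita, the master activator of class II, was at 3.11, 4.3, 4.36, 3.81 and 4.7 CPM in vehicle and 10.2, 14.7, 12.3, 13.2 and 9.37 CPM at 10 µg/kg. Its groups were separate, with a log2 fold change of 1.55 (SE 0.27, edgeR adjusted p = 0.000142). H2-Ab1 was at 58.1, 60.8, 57.9, 51.8 and 61.3 CPM in vehicle and 330, 307, 221, 259 and 144 CPM in TCDD kidneys. The vehicle kidneys were tight and the TCDD kidneys spread over more than 2-fold, with replicate 5 again the lowest and no overlap (log2 fold change 2.12, SE 0.27, edgeR adjusted p = 2.17e-06). Cd74, the invariant chain, behaved alike, at 106 to 120 CPM in vehicle and 724, 597, 391, 428 and 281 CPM (log2 fold change 2.09, SE 0.29). H2-DMb2, part of the peptide editor, had the largest log2 fold change of the list at 4.24 (SE 0.63), from at most 1.01 CPM to 2.5 to 15.8 CPM. The members that did not pass were H2-Ob (0.4) and the lysosomal enzymes Ifi30 (0.03) and Lgmn (-0.04).

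Macrophage and myeloid markers rose with these genes: 27 of 40 tested, none lower, with a median log2 fold change of 1.13 and a summed level of 266 to 320 CPM in vehicle against 475 to 543 CPM in TCDD kidneys. In bulk tissue, more cells of a type and more RNA per cell cannot be told apart, and the part of myeloid cells in the rise of class II and other immune genes was not tested. Adgre1, which encodes F4/80, was at 3.97, 3.49, 2.55, 2.63 and 3.23 CPM in vehicle and 8.58, 9.65, 8.89, 9.88 and 8.34 CPM at 10 µg/kg. The groups were far apart relative to their spread (log2 fold change 1.51, SE 0.21, edgeR adjusted p = 1.54e-06). C1qa, a complement component that tissue macrophages make, was at 13.9, 11.7, 11.3, 13 and 8.94 CPM in vehicle and 28, 32.2, 27.6, 37.2 and 26.3 CPM (log2 fold change 1.36, SE 0.16, edgeR adjusted p = 5.2e-08), also without overlap. Lyz2 (1.53), Fcgr4 (2), Clec7a (2.26), Cd68 (0.98) and the pan-leukocyte Ptprc (1.05) rose. Csf1r, the receptor for the growth factor of macrophages, did not pass. Its levels were 29.7, 28.5, 76.7, 84.4 and 80.4 CPM in vehicle and 70.5, 73.2, 89.3, 76.4 and 74 CPM in TCDD kidneys, so that vehicle replicates 1 and 2 alone lay below the TCDD range, and 15.1% of its exonic bases overlap a gene on the other strand (log2 fold change 0.36, SE 0.2, edgeR adjusted p = 0.419). Cd163 (0.22), Mrc1 (0.66) and Cd14 (0.21) did not pass either.

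Lymphocyte and neutrophil markers did not pass edgeR's test: 0 of 26 and 0 of 3 tested, with 6 and 2 at an unadjusted p under 0.05 and 1 of each called by DESeq2 and by limma-voom. The lymphocyte list had a median log2 fold change of 0.35 and summed to 20.1 to 24.2 CPM in vehicle and 25 to 32.6 CPM at 10 µg/kg. Of its defining members, Cd3e averaged 0.342 CPM in vehicle and 0.606 CPM in TCDD kidneys, and Cd8a 3.13 and 2.74 CPM. The neutrophil genes Mpo and Elane had no counts in any of the 10 libraries.

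Of 34 tested chemokines and receptors 13 rose and none fell (median log2 fold change 0.94). Cxcl10, an interferon-induced attractant of activated T cells, was at 2.42, 2.58, 2.29, 2.56 and 2.09 CPM in vehicle and 13.8, 10.5, 15.3, 18.5 and 14.5 CPM at 10 µg/kg. Each TCDD kidney was far above the narrow vehicle range, and the log2 fold change was 2.6 (SE 0.38, edgeR adjusted p = 1.05e-05). Cxcl9, a ligand of the same receptor, rose by 1.85 (SE 0.34), Ccl22 by 2.88 (SE 0.6) and the monocyte attractant Ccl2 by 2.3 (SE 0.59), the last from 0.129 to 0.921 CPM to 1.08 to 2.7 CPM. The receptor Ccr1 (2.16) rose too, and Ccr2 (0.59) did not pass. Of 27 complement genes 11 rose and none fell. Among them were the 3 C1q chains (also on the myeloid list), the proteases C1ra (0.89) and C1s1 (0.54), C4b (1.33), C7 (1.11), the receptors C3ar1 (2) and C5ar1 (2.03), and the inhibitor Serping1 (0.63), while the central component C3 (0.55) did not pass. Of the genes named here, Ccl2 lost its call without vehicle replicate 3 (edgeR adjusted p = 0.0501) and C1s1 without vehicle replicate 3 or 5 or TCDD replicate 2 or 5 (up to 0.12).

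**Figure D2:**
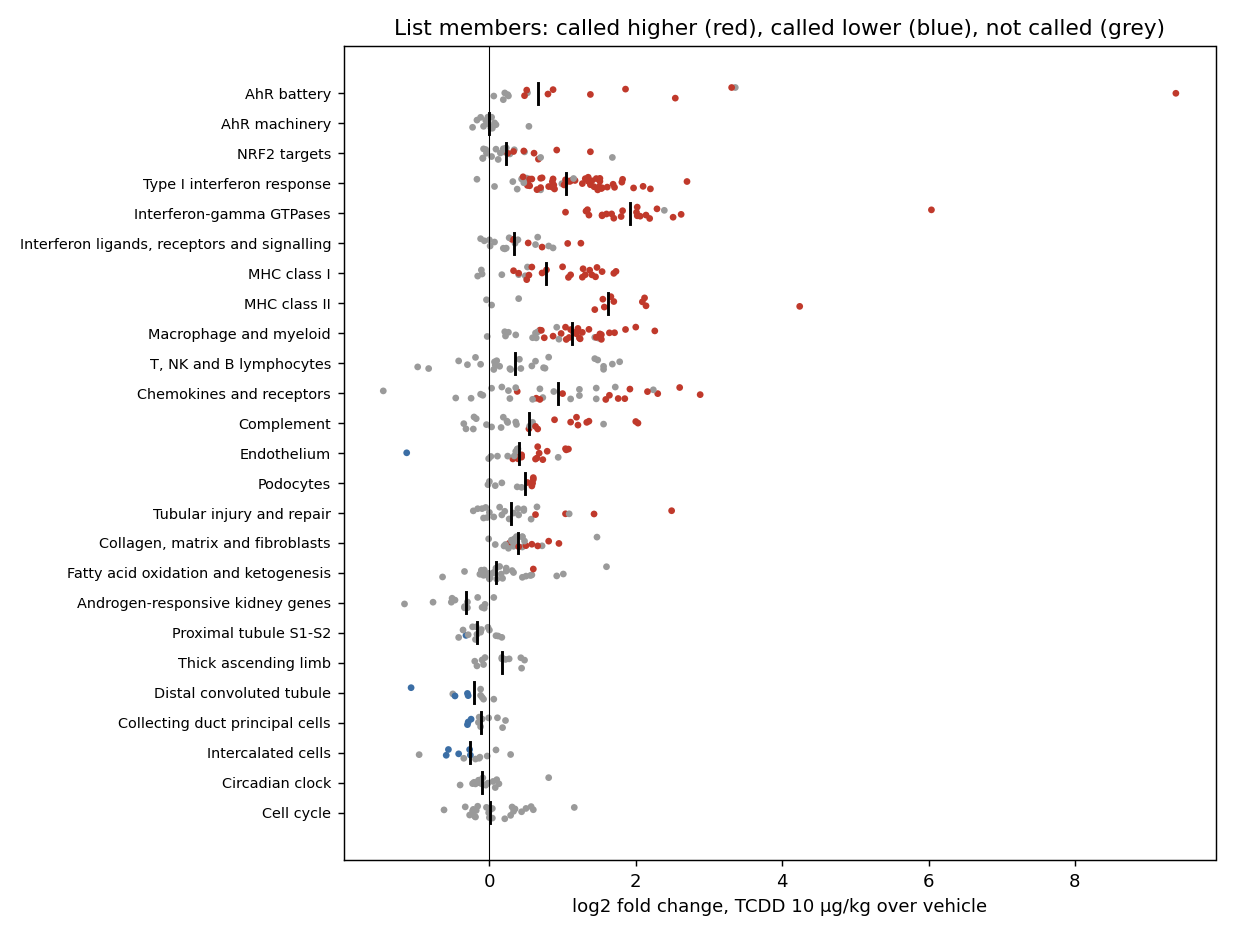
Log2 fold change, 10 µg/kg over vehicle, of every tested member of 25 lists, with members that rose in red, those that fell in blue and the others in grey; the black bar is the list's median. The type I interferon, GTPase, class II and myeloid lists lie to the right of 0 (medians 1.04 to 1.91). The list of interferon ligands, receptors and signalling has a median of 0.33. Among the lists to the left are the distal tubule, intercalated cell and androgen-responsive lists (-0.21, -0.26 and -0.32). The value near 6 is Gbp2b, whose vehicle level is at the floor.

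Several of the largest rises were of genes that are not on the immune lists. Absence from these lists does not mark a gene as non-immune, and the cell source of these rises was not tested. Atp12a, the colonic-type hydrogen-potassium pump, was at 0, 0.152, 0.129, 0.92 and 0.396 CPM in vehicle and 19.2, 21, 24.1, 13.2 and 18.3 CPM at 10 µg/kg. The gene was near background in every vehicle kidney and well measured in every TCDD kidney (log2 fold change 5.99, SE 0.53, edgeR adjusted p = 2.39e-09). Apol7c, of the apolipoprotein L family, rose by 5.29 (SE 0.54), to 7.29 to 8.74 CPM from at most 0.607 CPM. Ms4a4a, seen in 1 vehicle library at 0.0576 CPM, was at least 7.93-fold higher than the floor (edgeR adjusted p = 2.63e-05), and Gm8221 at least 9.73-fold. Nefh, a neurofilament subunit, was at 0 in 3 vehicle libraries and at 0.288 and 0.0863 CPM in the others, and rose to 1.02 to 1.72 CPM. Its fitted log2 fold change of 4.04 rests on that low level (3.73 to 5.39 without 1 library). Jaml rose by 3.25, the serine protease Tmprss4 by 3.04 and BC023105 by 2.99. Tmprss4 shares 15.9% of its exonic bases, Atp12a 13.9% and Jaml 12.8% with a gene on the other strand. In these unstranded counts, read pairs that match both genes are counted for neither, so the levels may be incomplete. The same limit holds for other genes described here: C1s1 (18.4%), Sox17 (16.8%), Psmb8 (14.7%), Nphs1 (11.8%), Icam1 (11.7%) and Slc34a1 (11.7%).

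Neurl3, an E3 ubiquitin ligase of the Neuralized family, had the lowest p of the rises outside the AhR battery. It was at 8.92, 7.59, 8.76, 5.85 and 7.98 CPM in vehicle and 37, 26.2, 33.1, 32.5 and 31.6 CPM in TCDD kidneys. The gap between the groups was larger than the range within either (log2 fold change 2.03, SE 0.16, edgeR adjusted p = 3.12e-13). Cd200, an inhibitory ligand for myeloid cells, rose by 1.16, and Lgals3bp, a secreted glycoprotein on the type I interferon list, by 1.43.

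Endothelial and podocyte genes rose modestly. Of 25 tested endothelial markers 15 rose and 1 fell, with a median log2 fold change of 0.4 and summed levels of 1210 to 1480 CPM in vehicle and 1620 to 1770 CPM at 10 µg/kg. Emcn, a sialomucin of capillaries, was at 62.1, 53.4, 63.5, 77.3 and 63.5 CPM in vehicle and 114, 106, 106, 108 and 96.6 CPM in TCDD kidneys. The groups were separate (log2 fold change 0.73, SE 0.08, edgeR adjusted p = 2.69e-09). Vcam1, an adhesion molecule for leukocytes, rose by 1.04, the arterial factor Sox17 by 1.05, Vwf by 1.08, Icam1 by 0.65, Cdh5 by 0.66 and Pecam1 by 0.4, while Plvap (0.25), Eng (0.11) and Cd34 (0.02) did not pass. Btnl9, a butyrophilin-like gene of the same list, went the other way, from 13.5, 17, 15.6, 12.7 and 11.5 CPM in vehicle to 7.13, 8.45, 5.38, 4.15 and 7.11 CPM. Each TCDD kidney was below each vehicle kidney (log2 fold change -1.13, SE 0.17, edgeR adjusted p = 5.04e-06). Without vehicle replicates 1 and 2, 10 of the endothelial rises passed. Vwf also lost its call without vehicle replicate 1, 2 or 3 or TCDD replicate 2 or 4 (edgeR adjusted p up to 0.112).

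Of 12 podocyte genes, markers of the filtering cells of the glomerulus, 6 rose and none fell (median log2 fold change 0.48). Podxl, a podocyte sialoprotein that endothelium also makes, was at 169, 188, 167, 211 and 221 CPM in vehicle and 251, 271, 318, 279 and 310 CPM at 10 µg/kg. These groups did not overlap (log2 fold change 0.58, SE 0.08, edgeR adjusted p = 3.55e-06). Synpo (0.6), Ptpro (0.6), Plce1 (0.59) and Nphs1 (0.58) also rose, Wt1 (0.38) did not pass, and 2 of the 12 passed without vehicle replicates 1 and 2. Leaving out 1 library removed 3 of these calls in some fits. Among the fits without 1 library, Nphs1 passed only without vehicle replicate 4 or 5 or TCDD replicate 1 (edgeR adjusted p up to 0.165). Plce1 was lost without vehicle replicate 2 or 4 or TCDD replicate 5 (up to 0.0713), and Ptpro without vehicle replicate 1 (0.055). Collagen, matrix and fibroblast genes had 7 rises of 24 (Lox 0.95, Fn1 0.81, Mmp2 0.66, Pdgfra 0.58, Pdgfrb 0.5, Sparc 0.4 and Col4a1 0.27), and the fibrillar collagens Col1a1 (0.34) and Col3a1 (0.45) did not pass. That count rested on particular libraries: it was 1 without vehicle replicates 1 and 2 together, 3 without vehicle replicate 2 or 3, and 4 without TCDD replicate 4 or 5. Fn1 and Pdgfrb kept their calls in each fit without 1 library, and Mmp2, Col4a1 and Sparc lost theirs in 7, 7 and 5 of the 10 (edgeR adjusted p up to 0.174, 0.155 and 0.0866). Pdgfra lost its call without vehicle replicate 2 or 3 or TCDD replicate 2 (up to 0.0661) and Lox without vehicle replicate 2 (0.071).

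Of 24 genes of tubular injury and repair 4 rose and none fell (median log2 fold change 0.3), and the classical damage markers were not among them. Havcr1 (KIM-1), the standard marker of proximal tubule injury, was at 0.921, 0.354, 1.12, 2.3 and 1.47 CPM in vehicle and 1.88, 0.864, 1.98, 1.18 and 1.82 CPM in TCDD kidneys. The ranges overlapped (log2 fold change 0.33, SE 0.47, edgeR adjusted p = 0.824). Lcn2 (NGAL) had a log2 fold change of 0.57 (SE 0.32, edgeR adjusted p = 0.395). The members that rose were Cd44, Cdkn1a, Vcam1 and Vim, which leukocytes or stromal cells can also express. The cell source of these rises was not tested. Cd44, a hyaluronan receptor, was at 3.51, 1.06, 0.432, 1.51 and 2.66 CPM in vehicle and 8.48, 11, 10.7, 10.3 and 10.4 CPM at 10 µg/kg. The lowest TCDD kidney was above the highest vehicle kidney (log2 fold change 2.49, SE 0.26, edgeR adjusted p = 4.54e-09). Cdkn1a, the cell cycle inhibitor p21, was at 6.97, 10.8, 8.5, 12.3 and 10.5 CPM in vehicle and 21, 36.2, 21.5, 24.3 and 28.8 CPM in TCDD kidneys, likewise separate (log2 fold change 1.43, SE 0.23, edgeR adjusted p = 3.87e-05). Of the 25 tested cell cycle genes none passed edgeR's test (3 at an unadjusted p under 0.05, none by DESeq2 or limma-voom), with a median log2 fold change of 0.01.

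The falls were smaller, and the lists of the distal nephron, where sodium, calcium and acid excretion are set, held several of them. Of 10 distal convoluted tubule genes 4 fell and none rose, and the list summed to 3340 to 4400 CPM in vehicle and 2770 to 3320 CPM at 10 µg/kg. Pvalb, the calcium buffer of the early distal convoluted tubule, was at 31.7, 40.2, 36, 26.6 and 19.5 CPM in vehicle and 18.4, 16.2, 19.4, 11.4 and 8.44 CPM in TCDD kidneys. The TCDD kidneys lay just below the lowest vehicle kidney at their upper end (log2 fold change -1.07, SE 0.22, edgeR adjusted p = 0.00121). Calb1, calbindin, which ferries calcium through these cells, was at 534, 602, 649, 547 and 494 CPM in vehicle and 476, 445, 399, 347 and 380 CPM in TCDD kidneys, again without overlap (log2 fold change -0.47, SE 0.08, edgeR adjusted p = 4.59e-05). The thiazide-sensitive cotransporter Slc12a3 fell by 0.3 and its regulator Wnk1 fell by 0.29. Both calls were lost when vehicle replicate 1 or 2 or TCDD replicate 4 was left out, and 2 of the 10 genes passed then.

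Of 13 intercalated cell genes, for the cells that secrete acid or base, 5 fell and none rose, with summed levels of 1020 to 1130 CPM in vehicle and 890 to 954 CPM at 10 µg/kg. Atp6v1b1, a proton pump subunit, was at 105, 135, 124, 116 and 118 CPM in vehicle and 87.5, 88.9, 92.8, 85.8 and 90.8 CPM in TCDD kidneys. The TCDD values were tightly grouped below all vehicle values (log2 fold change -0.42, SE 0.07, edgeR adjusted p = 2.01e-05). Its partner subunit Atp6v1c2 fell by 0.56, the anion exchanger Slc4a1 fell by 0.59, pendrin (Slc26a4) fell by 0.27 and the ammonia channel Rhcg fell by 0.26. Slc4a1 is also on a list of red blood cell genes, where it was the 1 fall among 6 tested. That list summed to 482 to 771 CPM in vehicle and 387 to 584 CPM at 10 µg/kg, with overlap. The cell source of the Slc4a1 fall was not tested. Leaving out single libraries (vehicle replicate 2 or 3 or TCDD replicate 1, 2, 4 or 5) left 3 calls, and Atp6v1b1 and Atp6v1c2 passed in every setting. Slc26a4 passed in 1 of the 10 fits without 1 library, the one without vehicle replicate 4, while Slc4a1 was lost without vehicle replicate 4 or 5 or TCDD replicate 1, 2 or 4 and Rhcg without vehicle replicate 2 or 3 or TCDD replicate 5 (edgeR adjusted p up to 0.148, 0.0742 and 0.0611). In principal cells, 3 of 11 genes fell: the water channel Aqp3 by 0.3 and the sodium channel subunits Scnn1b and Scnn1g by 0.29 and 0.25. The count was 1 without vehicle replicate 3 or TCDD replicate 1, 2 or 4. Scnn1g passed only without vehicle replicate 4 (edgeR adjusted p up to 0.131), Scnn1b was lost without TCDD replicate 4 (0.051), and Aqp3 without vehicle replicate 3 or 4 or TCDD replicate 1 or 2 (up to 0.0928). Of 12 thick ascending limb genes none passed edgeR's test, with 2 at an unadjusted p under 0.05 and none called by DESeq2 or limma-voom.

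**Figure D3:**
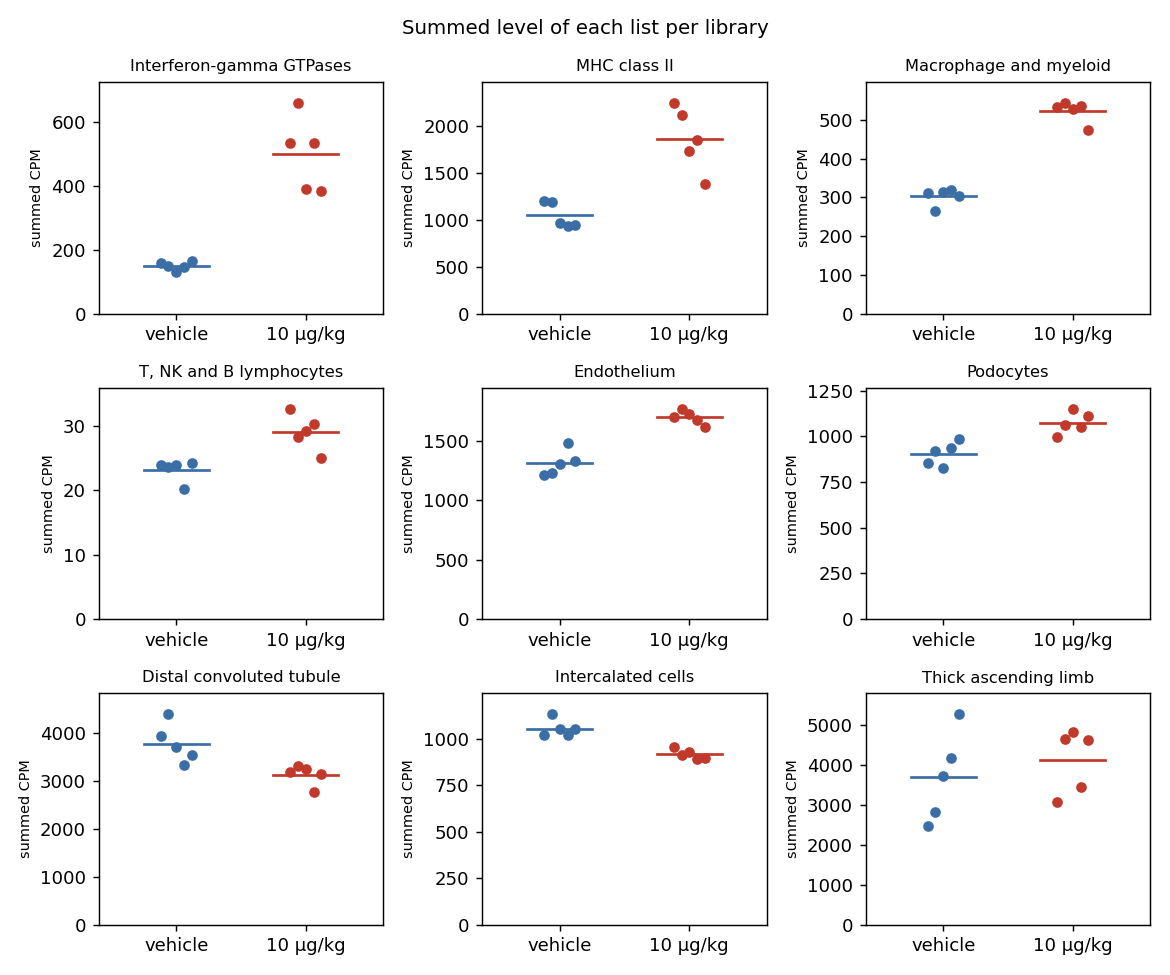
Summed CPM of 9 lists in each of the 5 vehicle (blue) and 5 TCDD 10 µg/kg (red) kidneys, with lines at the means. The groups separate upward for the first 6 lists and downward for the distal convoluted tubule and intercalated cell lists, and overlap for the thick ascending limb (2460 to 5260 CPM in vehicle against 3070 to 4820 CPM with TCDD).

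Of 17 genes of vitamin D and mineral handling, among them Calb1, 4 fell and 1 rose, and 2 fell without vehicle replicates 1 and 2. Slc8a1, the sodium-calcium exchanger, was at 262, 282, 250, 227 and 248 CPM in vehicle and 192, 196, 158, 120 and 171 CPM in TCDD kidneys. The groups did not overlap (log2 fold change -0.6, SE 0.11, edgeR adjusted p = 0.000261). Kl, which encodes klotho, the coreceptor for the phosphate hormone FGF23, was at 1160, 1280, 1070, 1160 and 1100 CPM in vehicle and 914, 807, 1020, 697 and 873 CPM at 10 µg/kg. It was lower in all 5 TCDD kidneys (log2 fold change -0.42, SE 0.1, edgeR adjusted p = 0.00564), a call lost without vehicle replicates 1 and 2. Slc34a1, the phosphate cotransporter of the proximal tubule, fell by 0.32, and its call was lost when vehicle replicate 1 or 2 or TCDD replicate 1, 2, 4 or 5 was left out (highest edgeR adjusted p = 0.139). Cyp27b1, which makes active vitamin D, was at 5.3, 7.74, 5.65, 2.96 and 4.81 CPM in vehicle and 9.2, 9.74, 14.8, 24 and 26.5 CPM in TCDD kidneys. It was higher in all 5, but the TCDD values were spread (log2 fold change 1.66, SE 0.48, edgeR adjusted p = 0.0393), and the call was lost in 6 of 12 alternative settings and in 6 of 10 fits without 1 library (vehicle replicates 1, 3, 4 or 5, TCDD replicates 4 or 5).

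Klk1, the renal kallikrein released by the connecting tubule, was at 1560, 1980, 2060, 1810 and 1540 CPM in vehicle and 1360, 961, 1180, 1260 and 985 CPM at 10 µg/kg. All TCDD kidneys were below all vehicle kidneys (log2 fold change -0.64, SE 0.09, edgeR adjusted p = 2.69e-06), and the call passed in every setting. Hrg, a plasma glycoprotein rich in histidine, had the largest fall by the naming rule, from 2.99, 2.73, 3.84, 6.18 and 4.08 CPM to 1.93, 0.72, 1.13, 0.666 and 1.13 CPM. These groups were separate, as that rule required, at a low level (log2 fold change -1.83, SE 0.35, edgeR adjusted p = 0.000333). AI838599 fell by 0.92, Syt7 (a synaptotagmin) fell by 0.86, Fcamr (an Fc receptor for IgA and IgM) fell by 0.83 and the beta-defensin Defb1 fell by 0.54. Npy6r, 4930469K13Rik, Unc13c and Adm2, at 0.241 to 6.02 CPM, had log2 fold changes of -1.67, -1.43, -1.35 and -1.12, and none of these calls held throughout. Npy6r lost its call without vehicle replicate 1 or TCDD replicate 1 (edgeR adjusted p up to 0.0555), and 4930469K13Rik, 27.1% of whose exonic bases overlap Lcp2 on the other strand, without vehicle replicate 3 or TCDD replicate 2 (up to 0.0619). Unc13c and Adm2 each lost theirs in 6 of the 10 fits without 1 library, among them those without vehicle replicate 1, 2 or 3 (up to 0.133 and 0.152).

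Among metabolic lists, fatty acid oxidation had 1 rise of 32, a share near the 3.82% of all genes tested (Vnn1, lost in 8 of the 10 fits without 1 library, the exceptions being vehicle replicate 5 and TCDD replicate 5). By edgeR, sterol synthesis had 0 of 22 (median log2 fold change -0.12, 3 at an unadjusted p under 0.05, 1 by DESeq2 and 0 by limma-voom) and androgen-responsive genes 0 of 14 (median -0.32, 2 at an unadjusted p under 0.05, 0 by DESeq2 or limma-voom). The proximal tubule lists gave 1 fall of 15 for S1-S2, which was Slc34a1, and 1 rise of 10 for S3. The latter was the amino acid transporter gene Slc7a12, at 5.3, 7.34, 4.4, 1.45 and 8.49 CPM in vehicle and 21.8, 34.6, 23, 16.9 and 20.2 CPM at 10 µg/kg. No kidney of one group entered the range of the other (log2 fold change 2.1, SE 0.44, edgeR adjusted p = 0.00208). The clock list had 0 of 18 and the mitochondrially encoded genes 0 of 13 past edgeR's test, with 0 at an unadjusted p under 0.05 in either and 0 called by DESeq2 or limma-voom.

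The same TCDD 10 µg/kg libraries were then set against the dose below and the dose above. These comparisons share the 10 µg/kg libraries with each other and with the vehicle comparison, so their values are given side by side only. Against 3 µg/kg, 19 genes (0.11%) differed, 16 higher (0.0922%) and 3 lower (0.0173%) at 10 µg/kg, and 1373 had an unadjusted p under 0.05. Of the 663 genes that rose over vehicle, 15 were also higher than at 3 µg/kg, and of the 173 that fell, 3 were also lower. The count depended on the fit: it was 149 with the groups of 10 and 3 µg/kg fitted alone, 74 by DESeq2 and 42 by limma-voom. Leaving out TCDD 3 replicate 1, 2 or 3 gave 5, 8 and 6 genes, and leaving out TCDD 10 replicate 2, 4 or 5 gave 3, 11 and 5.

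Cyp1a1 averaged 2.37 CPM in vehicle, 294 CPM at 3, 1570 CPM at 10 and 2530 CPM at 30 µg/kg, with a log2 fold change of 2.42 (SE 0.21, edgeR adjusted p = 6.54e-09) from 3 to 10. The ranges of these 4 doses did not overlap. Cyp1b1 averaged 23, 64.2, 134 and 187 CPM, with a log2 fold change from 3 to 10 of 1.06 (edgeR adjusted p = 4.29e-05). Il33, an alarm cytokine of barrier and stromal cells, was at 8.74, 6.19, 5.6, 9.57 and 7 CPM at 3 µg/kg and 17.7, 20.7, 12.4, 11.2 and 17.1 CPM at 10 µg/kg. The groups were separate (log2 fold change 1.09, SE 0.2, edgeR adjusted p = 0.00612), and the call was lost without TCDD 10 replicate 2. Cpm, carboxypeptidase M, was higher by 0.66, Nfe2l2 by 0.36 and, named after their values were seen, Atp12a by 1.76 and Lgals3bp by 0.61. The 3 lower genes were Tmprss9, a serine protease (-1.68), Tk1, thymidine kinase (-0.6), and Susd2 (-0.33). Many of these calls were lost when 1 library was left out. With all libraries, several lay near the threshold. The edgeR adjusted p was 0.0444 for Atp12a and 0.0403 for each of Lgals3bp, Tk1 and Susd2. Atp12a was lost in each of the 10 fits without 1 library (edgeR adjusted p 0.0611 to 0.179), and Lgals3bp in 8 of them, the exceptions being TCDD 3 replicate 5 and TCDD 10 replicate 3 (up to 0.167). Tmprss9 was lost without TCDD 10 replicate 2, Nfe2l2 without TCDD 3 replicate 1 or 3 or TCDD 10 replicate 2 or 5, and Tk1 and Susd2 each in 8 of the 10 fits without 1 library, among them those without TCDD 3 replicate 1, 2, 3 or 5 and TCDD 10 replicate 2, 4 or 5.

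Most of the interferon and myeloid genes were not called between 3 and 10 µg/kg. Of the type I interferon list 1 of 57 was higher (Lgals3bp, a call lost in 8 of the 10 fits without 1 library), of the GTPases 0 of 22, of class II 0 of 12 and of the myeloid list 0 of 40, with median log2 fold changes of 0.32, 0.17, 0.26 and 0.3 against 0 for all genes. Unadjusted p under 0.05 was seen for 1 GTPase, 4 class II and 10 myeloid genes, of which DESeq2 called 0, 0 and 3 and limma-voom 0, 0 and 2. Neurl3 had a log2 fold change of 0.41 (SE 0.15, edgeR adjusted p = 0.354) and Ctss, a lysosomal protease for class II loading, of 0.47 (SE 0.17, edgeR adjusted p = 0.348).

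Between 10 and 30 µg/kg, 469 genes (2.7%) differed, 206 higher (1.19%) and 263 lower (1.52%) at 30 µg/kg. With these groups fitted alone edgeR called 0, with 1567 at an unadjusted p under 0.05, while over all libraries DESeq2 called 631 and limma-voom 508. The count was also set by single libraries: it was 1194 without TCDD 30 replicate 1, 791 without replicate 2, 146 without replicate 3 and 209 without replicate 4, and 250 or 266 without TCDD 10 replicate 1 or 3. Of the 663 genes that rose at 10 µg/kg, 16 were higher still and 2 lower at 30, and of the 173 that fell, 4 were lower still and 3 higher.

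Abcc4 was at 97.4, 151, 91.3, 106 and 103 CPM at 10 µg/kg and 149, 197, 576, 448 and 344 CPM at 30 µg/kg. The highest kidney at 10 was within the range at 30, whose 5 kidneys spread widely (log2 fold change 1.64, SE 0.22, edgeR adjusted p = 0.000131). Hacl1, a peroxisomal lyase, was at 2.7 to 3.71 CPM at 10 and 4.92 to 18.3 CPM at 30 µg/kg, with 31.1% of its exonic bases within other genes on the same strand (log2 fold change 1.96, SE 0.3, edgeR adjusted p = 0.000162). Gsta4, a glutathione transferase, did not differ from vehicle at 10 µg/kg by the test (log2 fold change 0.28) and was higher by 1.14 at 30. Fatty acid oxidation genes, of which 1 of 32 was called at 10 µg/kg over vehicle, were higher for 15 of 32 at 30 over 10. Over all genes tested that share was 1.19%. With the groups of 10 and 30 µg/kg fitted alone, where edgeR called 0 genes, none of these passed.

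Klk1 averaged 1790, 1490, 1150 and 866 CPM at 0, 3, 10 and 30 µg/kg and fell by 0.41 on the log2 scale from 10 to 30 (SE 0.09, edgeR adjusted p = 0.00746), a call lost without TCDD 10 replicate 1 (log2 fold change -0.34). Pigr, the transporter of polymeric immunoglobulin, was at 108, 115, 127, 135 and 230 CPM in vehicle, 436, 396, 238, 162 and 151 CPM at 10 and 98.6, 128, 65, 153 and 109 CPM at 30 µg/kg. Its kidneys at 10 µg/kg were the most spread and overlapped both other groups (log2 fold change 0.95 over vehicle, edgeR adjusted p = 0.0477, and -1.32 from 10 to 30, edgeR adjusted p = 0.00842), and the call over vehicle was lost in 6 of 12 settings and 7 of the 10 fits without 1 library (vehicle replicate 1, 2, 3 or 4 or TCDD replicate 1, 2 or 3). The call from 10 to 30 was lost without TCDD 30 replicate 3 (log2 fold change -1.18). From 10 to 30 µg/kg, the median log2 fold change was -0.61 for the GTPases, -0.53 for class II and -0.27 for the type I interferon list. No GTPase was called in that comparison by edgeR (13 at an unadjusted p under 0.05, 2 called by DESeq2 and 4 by limma-voom). Of class II genes Lgmn was higher (0.32) and of type I interferon genes Stat2 was lower (-0.38), both picked out after their values were seen. Each of these calls was lost in 7 of the 10 fits without 1 library, among them TCDD 10 replicates 1 to 4 and TCDD 30 replicate 3 (edgeR adjusted p up to 0.403 and 0.148).

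**Figure D4:**
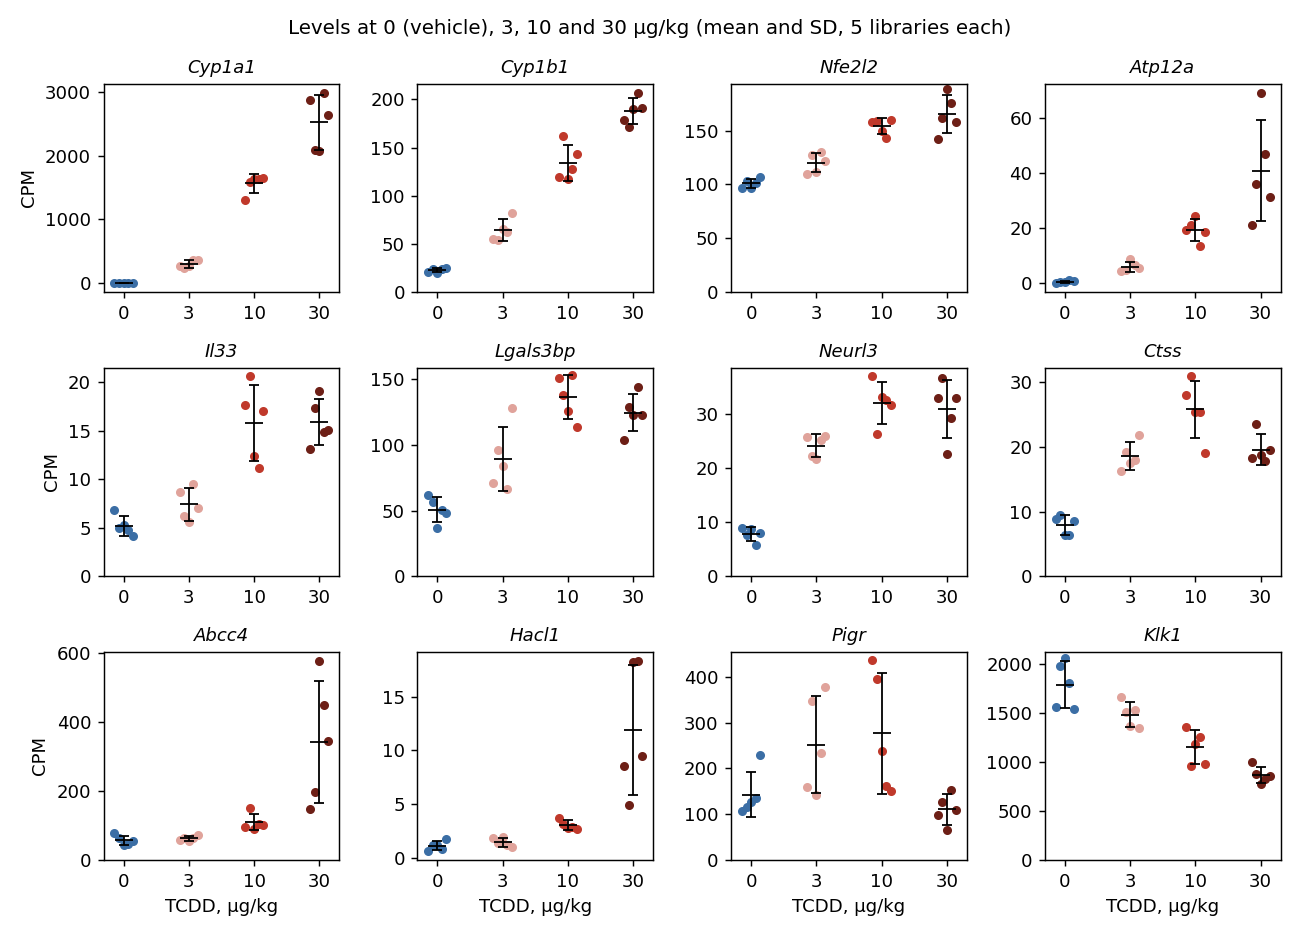
CPM of 12 genes in each kidney at 0 (vehicle), 3, 10 and 30 µg/kg, evenly spaced on the x axis, with horizontal marks at the mean and error bars of 1 SD (5 kidneys per dose). Cyp1a1 and Cyp1b1 are higher at each dose than at the one before, Neurl3 and Ctss are well above vehicle from 3 µg/kg on, Abcc4 and Hacl1 are highest at 30 µg/kg, and Klk1 falls.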

How the data were processed

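Kidney RNA was sequenced as 150 bp read pairs from libraries of a kit that does not mark strand. The values are counts of read pairs per gene, which the authors deposited for each library. The submitters' processing notes name FastQC 0.11.7, Trimmomatic 0.39, STAR 2.7.3a and DESeq2, and the builds GRCm39 and mm10 without their roles, so no gene coordinates are taken from the count files. Symbols came from GENCODE M21 and matched 52083 of 55359 identifiers. Unassigned read classes stayed out of library sizes and tests, and promoters are RefSeq sequence.

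The unstranded counts of all 40 libraries in 8 dose groups were fitted with edgeR 4.0.16 in R 4.3.3 (filterByExpr by group, TMM factors, robust quasi-likelihood test, 32 residual degrees of freedom). P-values were adjusted by Benjamini-Hochberg over the 17345 genes tested. The biological coefficient of variation was 17.1%. Bounds use a floor of 3 counts per library, which covers counting error only. Technical measures were compared by exact two-sided permutation tests. Tested on simulated data of 17022 genes for 10 µg/kg over vehicle, the fit recovered 59.7% of 1.5-fold, 85.1% of 2-fold and 100% of 4-fold changes, with 4.68% false calls. The changes were placed only in genes averaging at least 1 CPM, so recovery for lower genes was not measured. Counts were drawn independently for each gene from the fitted dispersions. Differences shared by many genes, such as those of vehicle replicates 1 and 2, were therefore absent, and the false-call share need not hold for the real data.

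Alternatives were DESeq2 1.42.0, limma-voom (limma 3.58.1), other scaling factors and count filters, the stranded column, the compared groups alone, the labels' title numbers as a term, libraries left out, and, added after seeing the data, a thick ascending limb score as a term and vehicle replicates 1 and 2 left out. Named by rule were the AhR battery, the largest and the lowest-p changes in each direction, and up to 4 called members per list. The largest changes were taken only among genes whose groups were apart, so their separation was set by the rule. Further list members were named after their values were seen. The members and lists were chosen with earlier results of these data known. Each library is 1 mouse.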

Additional observations from a re-analysis of the deposited data

Results flagged for a closer look

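In 13 of 136 groups of 5 libraries examined, 1 library lay farther from the other 4 than Dixon's critical share of the range (0.71) allows, where chance flags about 1 in 20 groups, or 7 of 136. At 10 µg/kg, Cyp1a1 was lowest in replicate 1, at 1310 CPM with the next at 1590, and Cyp1a2 was highest in replicate 5, at 6.33 CPM with the next at 0.768. Replicate 2 at 10 µg/kg held 4 such values: Jaml at 2.59 CPM (next 1.91), Abcc4 at 151 CPM (next 106), Adm2 at 0.96 CPM (next 2.46) and Ftcd, an enzyme of histidine breakdown, at 14.2 CPM (next 18.8). Replicate 4 held Gm8221 at 2.86 CPM (next 1.49) and Entpd1, an ectonucleotidase, at 11.4 CPM (next 13.2).

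Among vehicle kidneys, Ms4a4a was at 0.0576 CPM in replicate 1 and 0 in the others, and Ftcd was lowest there at 22.9 CPM (next 28.6). Apol7c was at 0.607 CPM in vehicle replicate 2 (next 0.173) and Pigr at 230 CPM in vehicle replicate 5 (next 135). The share of read pairs that matched more than 1 gene was highest in vehicle replicate 5, at 5.74% against a next value of 5.58%. No cause was tested for any of these values.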

How the results depend on the processing

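No paired analysis was possible because the labels give the libraries no replicate numbers. The 836 genes called at 10 µg/kg over vehicle became 515 without vehicle replicates 1 and 2 and 578 to 893 with 1 library left out. The 663 higher genes became 422 and 498 to 692, and the 173 lower genes 93 and 80 to 201, or 95 with no low-count filter. All other settings kept these 3 counts within 1.5 times, and no called gene that the text names by its rule changed sign. Of uncalled genes, Ahr changed sign on the stranded column (-0.05) and ran from -0.04 to 0.09 without 1 library, Arnt ran from -0.01 to 0.14, and Havcr1 changed sign without vehicle replicates 1 and 2 (-0.07). Of the 663 higher genes 421 passed in each of the 10 fits without 1 library and 388 without vehicle replicates 1 and 2, and of the 173 lower genes 52 and 58. The 19 genes called at 10 over 3 µg/kg became 149 with these groups alone, 74 by DESeq2, 42 by limma-voom, 29 on the stranded column, 46 with the thick ascending limb score, 34 without vehicle replicates 1 and 2, and 3 to 23 with 1 library left out. The 469 called at 30 over 10 µg/kg became 0 with these groups alone (1567 at an unadjusted p under 0.05 by edgeR), 165 without TCDD 10 replicates 3 and 4, and 146 to 1194 with 1 library left out. List counts moved by over 1.5 times in 44 of 312 values under other settings and 56 of 260 without 1 library. Named genes lost their call in 52 and 76 values and gained it in 2 and 2. The cause was not tested. The precision of low genes is limited by their few counts, and in simulated data 1.5-fold changes were recovered least often of the sizes tried.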

Other observations

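Among 32 tested organic ion and drug transporters, which the proximal tubule uses to secrete foreign compounds, 3 rose and 1 fell. Besides Abcc4, Slco2b1 was at 14, 15.5, 13.4, 18.5 and 20.4 CPM in vehicle and 26, 30.7, 22.5, 26.6 and 29.6 CPM at 10 µg/kg, with no overlap (log2 fold change 0.73, SE 0.13, edgeR adjusted p = 0.000114). The prostaglandin transporter Slco2a1 rose by 0.44, a call lost without vehicle replicate 1 (edgeR adjusted p = 0.0529). Slc22a4 fell by 0.29, a call lost in 6 of the 10 fits without 1 library (TCDD replicate 1, 2, 4 or 5 or vehicle replicate 4 or 5, edgeR adjusted p up to 0.125).

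Of the ion pump genes, Fxyd5, a regulator of the sodium pump, rose by 0.72 (SE 0.14) beside Atp12a. Atp4a, the gastric relative of Atp12a, was at 55.1 to 69.7 CPM in vehicle and 46.9 to 54.5 CPM at 10 µg/kg, so its groups were apart by a small margin (log2 fold change -0.35, SE 0.09, edgeR adjusted p = 0.0151). That call was lost without vehicle replicate 2 or TCDD replicate 1 (up to 0.0554).

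Ucp1, the uncoupling protein of brown fat, was at 11.9, 15.9, 9.93, 9.53 and 4.19 CPM in vehicle and 54.6, 109, 10.3, 115 and 50.5 CPM at 10 µg/kg. TCDD replicate 3 lay within the vehicle range and the other 4 far above it (log2 fold change 2.72, SE 0.66, edgeR adjusted p = 0.00945), and limma-voom did not call it. The other 9 genes of the adipocyte list did not pass, and that list summed to 336, 305, 158, 215 and 128 CPM in vehicle and 305, 312, 90.3, 466 and 229 CPM in TCDD kidneys, lowest in the same TCDD replicate 3. The part of adipose tissue in the Ucp1 difference was not tested.

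Of 14 immediate early genes, which respond within minutes to handling or stress of tissue, none passed edgeR's test (4 at an unadjusted p under 0.05, none by DESeq2 or limma-voom), with a median log2 fold change of 0.49.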
